A study of Homo sapiens with 4 samples.

Results

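*SMARCB1* and 9 partner subunits of the SWI/SNF chromatin remodelling complex were followed in PC9 cells and in PC9OR cells, their osimertinib-resistant derivative. The 10 genes are *SMARCB1*, *SMARCA4*, *SMARCA2*, *SMARCC1*, *SMARCC2*, *SMARCD1*, *SMARCE1*, *ARID1A*, *ARID1B* and *PBRM1*, out of 16813 genes listed in at least 1 library. *SMARCB1* was chosen by its high level in PC9OR in these same libraries, so its values are a description and carry no test. The partners were chosen by membership of the complex, to see whether they moved with it. PC9 is a lung adenocarcinoma line with a mutant, drug-sensitive EGFR, and osimertinib is an inhibitor of that receptor. Both lines were labelled wild type, PC9 as the control, and both grew in RPMI 1640 with fetal bovine serum; drug exposure of the cultures is not given in the labels. RNA-seq of 2 biological replicates per line gave 4 libraries. Resistance is represented by 1 derived line, so what belongs to resistance and what belongs to that line cannot be told apart.

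SWI/SNF complexes use the energy of ATP to slide or evict nucleosomes and so open DNA at promoters and enhancers. In the canonical BAF and PBAF forms an ATPase, SMARCA4 or SMARCA2, sits on a core of SMARCC, SMARCD, SMARCE1 and SMARCB1 proteins. An ARID1 subunit marks canonical BAF, while PBRM1 and ARID2 mark PBAF. SMARCB1 contacts the nucleosome and is a tumour suppressor whose loss defines rhabdoid tumours, and ARID1A and SMARCA4 are recurrently mutated in lung and other carcinomas.

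The libraries held between 23201307 (PC9 replicate 1) and 32203998 (PC9OR replicate 2) expected counts, RSEM's estimate of reads per gene. The PC9 pair varied more than the PC9OR pair, the coefficient of biological variation being 0.241 in PC9 and 0.104 in PC9OR. Transcript length moved with both the PC9 replicates and the comparison. Over 12294 genes, which are not independent replicates, Spearman's rho between length and the log2 difference was -0.43 for PC9 replicate 2 minus replicate 1, 0.00242 for the PC9OR pair and -0.37 for PC9OR minus PC9. The partners' transcripts average 2425 to 9725 bases, against 1719 for *SMARCB1*, so each call is also given from a fit with length offsets, which remove each library's smooth trend with length. A real difference between the lines that goes with length is removed along with it. Of 8 epithelial and lung markers, the keratins, *EPCAM* and *CDH1* were abundant, but the lung markers *NKX2-1* and *NAPSA* stayed at or below 0.375 CPM (expected counts scaled to library size). Of 10 markers of blood, endothelial and stromal cells, 2 were not listed and none exceeded 0.59 FPKM (fragments scaled to library size and to transcript length). In bulk libraries a change per cell and a change in the share of cells that express a gene cannot be told apart.

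The starts of *SMARCB1* and *ARID1A* are shown because these members stood farthest apart between the lines, in opposite directions. Each window of RefSeq's promoters on GRCh38.p14 spans the start that RefSeq gives the gene. It lies mostly upstream of that start, written 5′ to 3′ on the gene's strand. The gene positions given below are from GENCODE, whose starts can differ. Capitals mark the searched motifs found there on either strand, namely CGCNTGCGC (part of the NRF1 motif), GGGCGG (the GC box) and CCAAT. They lie at chr22:23786716-23787015 on the plus strand for *SMARCB1* and at chr1:26695765-26696064 on the plus strand for *ARID1A*.
SMARCB1: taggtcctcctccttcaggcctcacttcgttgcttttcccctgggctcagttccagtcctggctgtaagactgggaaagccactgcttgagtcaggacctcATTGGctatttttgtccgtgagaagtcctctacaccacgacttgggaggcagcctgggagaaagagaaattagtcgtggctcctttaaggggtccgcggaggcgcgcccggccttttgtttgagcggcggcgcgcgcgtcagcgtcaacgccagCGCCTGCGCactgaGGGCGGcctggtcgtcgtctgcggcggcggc
ARID1A: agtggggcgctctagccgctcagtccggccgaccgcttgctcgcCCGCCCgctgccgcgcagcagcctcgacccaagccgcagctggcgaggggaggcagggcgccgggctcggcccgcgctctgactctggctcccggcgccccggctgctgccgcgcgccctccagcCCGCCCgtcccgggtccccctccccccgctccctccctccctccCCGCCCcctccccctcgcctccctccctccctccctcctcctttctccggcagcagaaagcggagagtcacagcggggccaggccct

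Both windows were rich in G and C, with 61.7% in *SMARCB1* and 78.0% in *ARID1A* against a median of 58.3% over 27305 promoters of the same length. *SMARCB1* held 1 match each to CGCNTGCGC, GGGCGG and CCAAT, the last on the opposite strand. *ARID1A* held 3 matches to GGGCGG, all on the opposite strand. The promoter table matched 8 of the 10 members, not *SMARCC1* and *SMARCC2*. Of these 8, GGGCGG was found in 7 against 44.6% of all promoters, CCAAT in 4 against 35.7%, CGCNTGCGC in 2 against 8.05%, and CCGGAAG (an ETS-type motif) in 1 against 10.7%. TATAAA, the TATA box, was in none of the 8 and in 11.95% of all promoters. The matches in capitals above do not overlap one another, and a match says only that the letters are present.

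*SMARCB1* lies on chromosome 22 at 24129118-24180196 (GRCh37, plus strand, 9 exons). It had 20.74 and 19.53 FPKM in PC9 replicates 1 and 2, and 180.41 and 175.20 FPKM in PC9OR replicates 1 and 2. The lines were far apart, and the replicates of each lay close together. Scaled to library size alone, this was 45.9 ± 1.22 CPM in PC9 and 413 ± 2.44 CPM in PC9OR (SD, n = 2 each). In the edgeR fit the level was 8.98-fold higher in PC9OR, a log2 fold change of 3.17 (SE 0.109), and 1.19% of the 13148 genes tested had a higher one. All its expected counts were whole numbers (1097, 1300, 13273 and 13143), so they show no sign of reads divided between it and another gene. With length offsets the log2 fold change was 2.99.

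**Figure D1:**
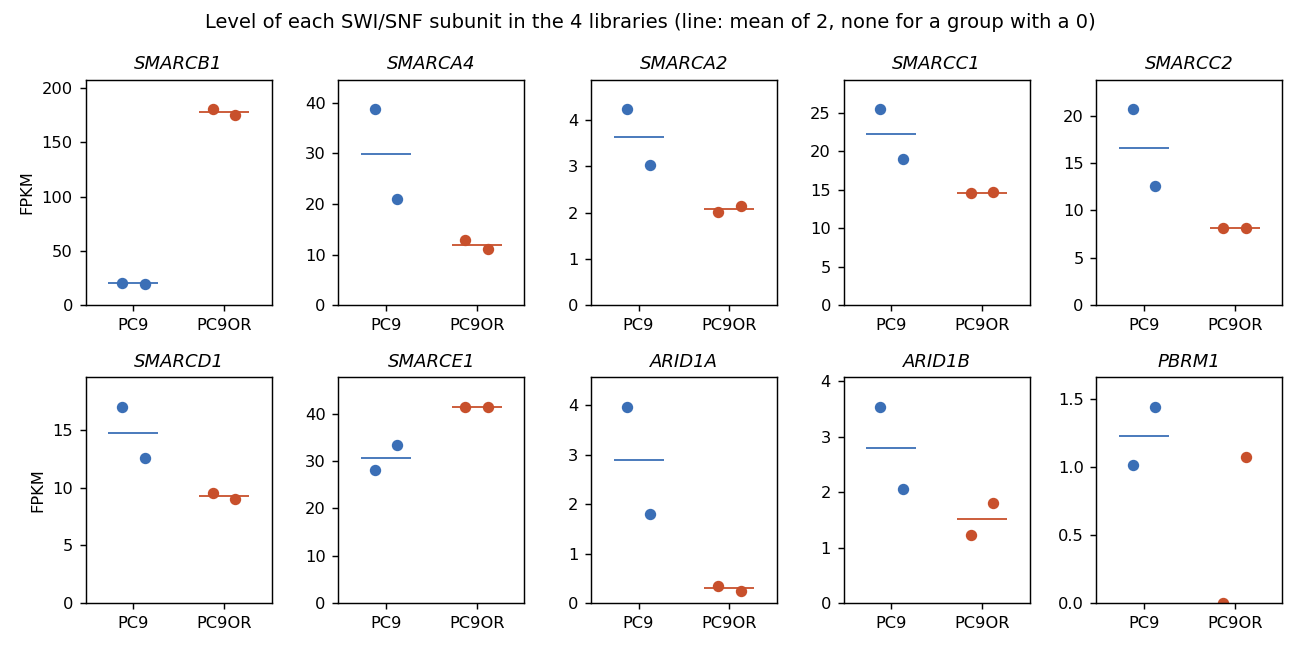
FPKM (fragments scaled to library size and transcript length; linear axes from 0, a separate scale per gene) of the 10 members in each of 2 PC9 and 2 PC9OR libraries; points are libraries and lines are means of 2, with no line for a group that holds a 0. *SMARCB1* goes from 20.74 and 19.53 to 180.41 and 175.20 FPKM, *SMARCE1* is the partner with both PC9OR points above both PC9 points, and *PBRM1* is listed at 0 in PC9OR replicate 1.

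Most partners did not move with *SMARCB1*. Of 9 tested, 6 fell, 1 rose and 2 were not called at an adjusted p under 0.05, while 20.8% of all genes tested fell and 15.6% rose. Their median log2 fold change was -0.83, beside 0.01 over all genes tested. In 7 partners both PC9OR libraries lay below both PC9 libraries, which held for 38.2% of all genes, and in 1 both lay above, which held for 39.6%. With length offsets 4 fell, 1 rose and 4 were not called, beside 18.6% of genes lower and 20.1% higher, and the median was -0.50. In 7 of the 9, PC9 replicate 2 was itself below PC9 replicate 1, the direction in which long transcripts differed between those replicates. The part of length in the partner counts was otherwise not tested. Only 2 partners fell without PC9OR replicate 1 (*SMARCA4* and *ARID1A*) and 2 without PC9OR replicate 2 (*ARID1A* and *PBRM1*, which is then left with a library at 0), and none rose in either case.

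*SMARCA4* (BRG1) is the main ATPase of the complex in most dividing cells and lies on chromosome 19 at 11071608-11190102 (plus strand, 35 exons). It had 38.71 and 20.99 FPKM in PC9 and 12.79 and 11.13 FPKM in PC9OR. The lines did not overlap, although the PC9 replicates differed more from each other than the PC9OR replicates did. *SMARCA4* was 2.40-fold lower in PC9OR (log2 fold change -1.27, SE 0.291, quasi-likelihood test of edgeR, Benjamini-Hochberg adjusted p = 0.0283). The call held with length offsets, at -0.90 (edgeR adjusted p = 0.0246), and was lost without PC9OR replicate 2 (edgeR adjusted p = 0.0659).

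*SMARCA2* (BRM), the alternative ATPase, lies on chromosome 9 at 1980290-2193624 (plus strand, 34 exons). It had 4.23 and 3.02 FPKM in PC9 and 2.01 and 2.15 FPKM in PC9OR, again without overlap. It fell by 0.76 on the log2 scale (SE 0.189, edgeR adjusted p = 0.0332), but the difference was -0.38 with length offsets and was then not called (edgeR adjusted p = 0.0771). *SMARCA4* exceeded *SMARCA2* per length in every library, with FPKM ratios of 9.15 and 6.95 in PC9 and 6.36 and 5.18 in PC9OR. The log2 ratio differed by -0.47 between the lines, and the exact permutation test gave p = 0.333 (two-sided), the smallest that 2 against 2 libraries allow.

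*SMARCC1* (BAF155) and *SMARCC2* (BAF170) are related scaffold subunits around which the core assembles. *SMARCC1*, on chromosome 3 at 47626759-47823596 (minus strand, 28 exons), had 25.47 and 19.05 FPKM in PC9 and 14.55 and 14.66 FPKM in PC9OR. The lines did not overlap. *SMARCC1* fell by 0.57 on the log2 scale (SE 0.157, edgeR adjusted p = 0.0436), a call that was lost with length offsets (log2 fold change -0.19, edgeR adjusted p = 0.214).

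*SMARCC2*, on chromosome 12 at 56556143-56583351 (minus strand, 29 exons), had 20.69 and 12.57 FPKM in PC9 and 8.17 and 8.10 FPKM in PC9OR. Both PC9OR libraries were below both PC9 libraries, and the PC9 replicates stood well apart. It fell by 0.99 on the log2 scale (SE 0.243, edgeR adjusted p = 0.0327) and by 0.67 with length offsets (edgeR adjusted p = 0.0331). The FPKM ratio of *SMARCC1* to *SMARCC2* was 1.23 and 1.52 in PC9 and 1.78 and 1.81 in PC9OR. The log2 ratio was 0.39 higher in PC9OR (exact permutation test, p = 0.333, two-sided, again the smallest possible).

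*SMARCD1* (BAF60A), a core subunit that links the complex to transcription factors, lies on chromosome 12 at 50478983-50494490 (plus strand, 13 exons). It had 17.01 and 12.53 FPKM in PC9 and 9.54 and 9.03 FPKM in PC9OR, with no overlap and with whole counts in all 4 libraries. It fell by 0.63 on the log2 scale (SE 0.167, edgeR adjusted p = 0.0394), and by 0.50 with length offsets (edgeR adjusted p = 0.0374).

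*SMARCE1* (BAF57), a core subunit with a DNA-binding HMG domain, lies on chromosome 17 at 38781214-38804906 (minus strand, 11 exons). It was the partner that rose with *SMARCB1*, with 28.16 and 33.26 FPKM in PC9 and 41.41 and 41.40 FPKM in PC9OR. Both PC9OR libraries lay above both PC9 libraries, and all its counts were whole. The rise was 1.38-fold (log2 fold change 0.46, SE 0.131, edgeR adjusted p = 0.0470), close to the threshold. It was 0.43 with length offsets (edgeR adjusted p = 0.0398), and without a filter on low counts the call was lost (edgeR adjusted p = 0.0556).

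*ARID1A*, the large DNA-binding subunit of canonical BAF, lies on chromosome 1 at 27019727-27108595 (plus strand, 20 exons). It had 3.97 and 1.80 FPKM in PC9 and 0.35 and 0.25 FPKM in PC9OR. The lines did not overlap, although the PC9 replicates stood apart. *ARID1A* was 9.19-fold lower in PC9OR (log2 fold change -3.20, SE 0.451, 95% interval -4.35 to -2.05, edgeR adjusted p = 0.0101), and 1.67% of genes tested had a lower log2 fold change. With length offsets the difference was -2.52 (edgeR adjusted p = 0.00506), and leaving out each library in turn gave -3.68 to -2.52. None of its counts was whole (1119.57, 621.86, 140.52 and 100.37), so RSEM had divided reads between *ARID1A* and other entries in every library.

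*ARID1B*, the alternative to *ARID1A* in BAF, lies on chromosome 6 at 157097154-157531913 (plus strand, 20 exons). It had 3.54 and 2.06 FPKM in PC9 and 1.23 and 1.81 FPKM in PC9OR. The lines did not overlap, but PC9 replicate 2 and PC9OR replicate 2 were close. The log2 fold change was -0.83 (SE 0.319, 95% interval -1.65 to -0.01) and was not called (edgeR adjusted p = 0.0957). It was called with DESeq2 (adjusted p = 0.0289), while length offsets left -0.08 (edgeR adjusted p = 0.803). Leaving out each library in turn moved it from -0.42 (without PC9 replicate 1) to -1.17 (without PC9 replicate 2), and the latter was called (edgeR adjusted p = 0.0198).

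The FPKM ratio of *ARID1A* to *ARID1B* was 1.121 and 0.874 in PC9 and 0.285 and 0.138 in PC9OR. *ARID1A* thus went from a level like that of *ARID1B* to a level below it in both PC9OR libraries. The log2 ratio differed by -2.32 (exact permutation test, p = 0.333, two-sided, the smallest possible).

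*PBRM1* (BAF180), the bromodomain subunit of PBAF, lies on chromosome 3 at 52579368-52719933 (minus strand, 32 exons). It had 1.01 and 1.44 FPKM in PC9 and 1.07 FPKM in PC9OR replicate 2, and it was listed at 0 in PC9OR replicate 1. The library with a value lay between the PC9 replicates. The 95% interval of its log2 fold change ran from -5.24 to 2.93 (edgeR adjusted p = 0.591), and without PC9OR replicate 1 the log2 fold change was -0.15. A call of lower was made without PC9OR replicate 2, where the library at 0 stands alone for PC9OR, by the pooled-replicate model, and when length offsets and replicate numbers were fitted together. Of 10270 genes with at least 100 expected counts in 3 or more libraries, 18 were at 0 in 1 library with at least 100 in the other 3.

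Expected counts that are not whole varied more between replicates. Among genes with a mean of at least 10 CPM, 0.41% of 4150 genes with whole counts in every library differed by over 2-fold between replicates of PC9, and 0% between those of PC9OR. Of 3584 genes without a whole count, 3.43% did so in PC9 and 1.1998% in PC9OR. The medians lay closer together. The median absolute log2 difference between PC9 replicates was 0.228 with whole counts and 0.262 without. Between PC9OR replicates it was 0.072 and 0.092. Of the members, *SMARCB1*, *SMARCD1* and *SMARCE1* had whole counts throughout. The part of read division in the *ARID1A* and *PBRM1* values was not tested.

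**Figure D2:**
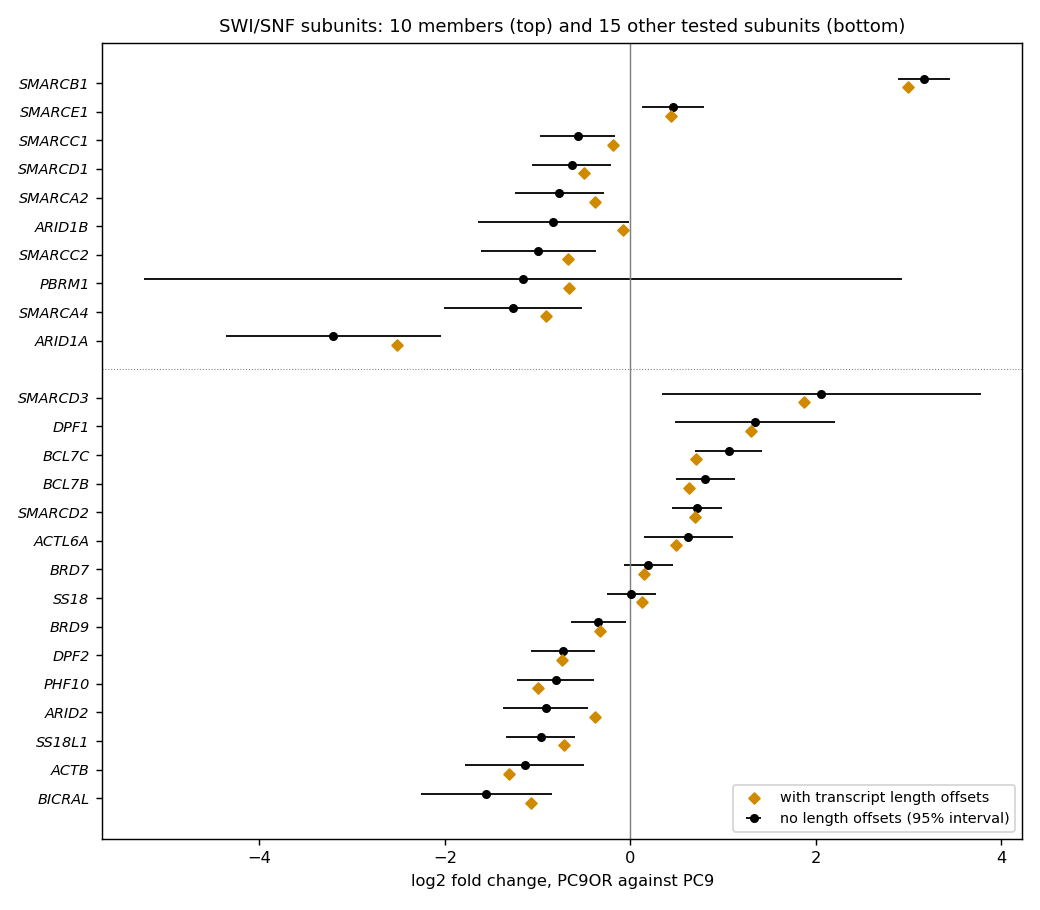
Log2 fold change (PC9OR against PC9) with 95% intervals for the 10 members and 15 other tested SWI/SNF subunits, from the edgeR fit on expected counts and from the fit with transcript length offsets. *SMARCB1* stands at 3.17 and *ARID1A* at -3.20, the other partners with values in all libraries lie between -1.27 and 0.46, and the *PBRM1* interval is wide because 1 library is at 0.

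Levels of different genes can be compared per length, on the FPKM scale. FPKM does not remove the trend with length that differs between libraries. Ranks, sums and ratios of genes of unlike length therefore carry that trend. In PC9 replicate 1 *SMARCB1* ranked 4 among the 10 members, after *SMARCA4*, *SMARCE1* and *SMARCC1*, with 12.7% of their summed FPKM. In PC9 replicate 2 it ranked 3 with 15.5%, and in both PC9OR libraries it ranked 1, with 66.7% and 66.2%. In PC9 the ranges of neighbours from *SMARCE1* down to *SMARCD1* overlapped, so their order is not settled by 2 replicates. *SMARCA2*, *ARID1A* and *ARID1B* also overlapped one another, below that group and above *PBRM1*. In PC9OR the order *SMARCB1*, *SMARCE1*, *SMARCC1*, *SMARCA4*, *SMARCD1*, *SMARCC2*, *SMARCA2*, *ARID1B* had no overlap between neighbours, and only *PBRM1* and *ARID1A*, the lowest, overlapped.

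Levels were also summed over paralogs that can take the same place in the complex. Summed FPKM of *SMARCA4* and *SMARCA2* was 42.94 and 24.01 in PC9 and 14.80 and 13.28 in PC9OR. That of *SMARCC1* and *SMARCC2* was 46.16 and 31.62 in PC9 and 22.72 and 22.76 in PC9OR. The SMARCD family was higher in both PC9OR libraries, with 54.23 and 51.69 FPKM summed over *SMARCD1*, *SMARCD2* and *SMARCD3* in PC9 and 72.71 and 70.45 in PC9OR. *ARID1A*, *ARID1B* and *ARID2* together had 20.32 and 12.30 FPKM in PC9 and 6.86 and 7.25 FPKM in PC9OR. None of these sums was tested.

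Set against each of the 8 partners listed in every library, *SMARCB1* RNA was in larger relative amount in both PC9OR libraries, and for *PBRM1* the ratio exists only in PC9OR replicate 2. Per *SMARCA4* its FPKM ratio was 0.536 and 0.930 in PC9 and 14.1 and 15.7 in PC9OR. Per *SMARCE1*, the partner that rose, it was 0.737 and 0.587 in PC9 and 4.36 and 4.23 in PC9OR. Among those 8 the widest gap was to *ARID1A*, with ratios of 5.22 and 10.9 in PC9 and 515 and 701 in PC9OR. These ratios use the value that chose *SMARCB1*, so they are not tested. They also carry the trend with length. With length offsets the log2 fold change was 2.99 for *SMARCB1* and -2.52 for *ARID1A*, against 3.17 and -3.20 without.

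**Figure D3:**
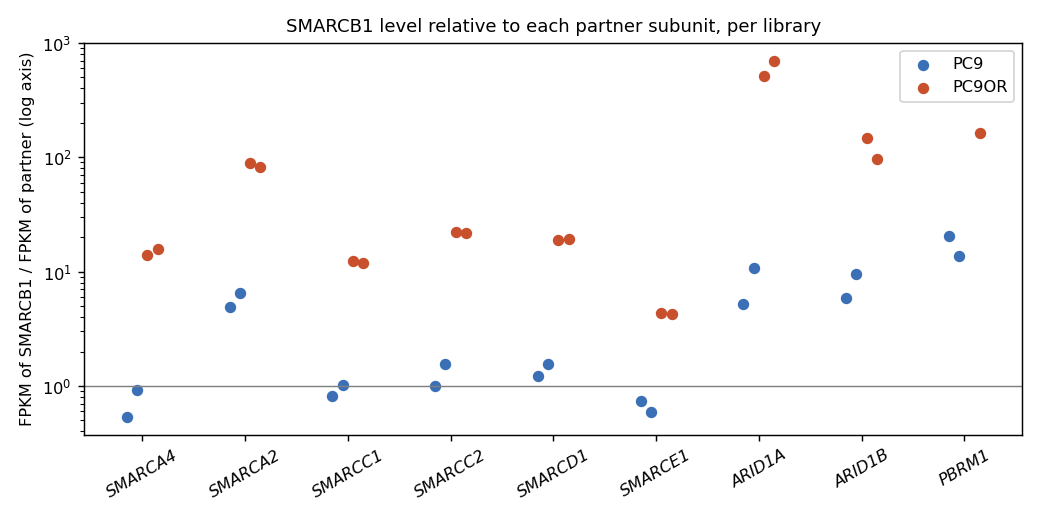
Ratio of *SMARCB1* FPKM to the FPKM of each partner in 2 PC9 and 2 PC9OR libraries (log axis, 1 point per library). Both PC9OR points lie above both PC9 points for 8 partners, from 4.23 per *SMARCE1* to 701 per *ARID1A*, and *PBRM1* has 1 PC9OR point because the other library is at 0.

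Of 19 other subunits, 17 were listed and 15 tested, of which 4 rose, 6 fell and 5 were not called, with a median log2 fold change of 0.01, beside 15.6% of all genes tested higher and 20.8% lower. With length offsets the counts were again 4 and 6, beside 20.1% and 18.6% of all genes. Those that rose were *BCL7C* (log2 fold change 1.06), *BCL7B* (0.81), *SMARCD2* (0.72) and *DPF1* (1.34). *BCL7C* went from 27.0 and 32.9 CPM in PC9 to 63.9 and 61.2 CPM in PC9OR (edgeR adjusted p = 0.00913), and *BCL7B* belongs to the same small BAF subunit family. *SMARCD2*, a paralog of *SMARCD1*, had 122 and 132 CPM in PC9 and 211 and 208 CPM in PC9OR (edgeR adjusted p = 0.0109). *DPF1*, a PHD-finger subunit best known from neurons, stayed low at 1.11 and 0.971 CPM in PC9 and 2.78 and 2.50 CPM in PC9OR (edgeR adjusted p = 0.0344). Its call was lost with DESeq2 (adjusted p = 0.0564) and with replicate numbers fitted (edgeR adjusted p = 0.0555).

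Those that fell were *BICRAL* (log2 fold change -1.55), *ACTB* (-1.14), *SS18L1* (-0.97), *ARID2* (-0.91), *PHF10* (-0.81) and *DPF2* (-0.73). *ARID2* and *PHF10* belong to PBAF, *BICRAL* to the non-canonical complex that carries BRD9, and *DPF2* and *SS18L1* to BAF. *ARID2* had 123 and 90.1 CPM in PC9 and 54.8 and 58.5 CPM in PC9OR (edgeR adjusted p = 0.0195), and its log2 fold change was -0.38 with length offsets. *ACTB*, also the cytoskeletal actin, had 6066 and 3706 CPM in PC9 and 2343 and 2089 CPM in PC9OR (edgeR adjusted p = 0.0254). *BICRA* was listed in PC9 replicate 1 alone, at 2.47 CPM, and *DPF3* and *ACTL6B*, neuronal or muscle forms, were listed in none of the libraries.

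Other chromatin remodellers and the subunits of PRC2, the histone methyltransferase that SWI/SNF opposes, gave 17 of 43 tested genes lower and 2 higher, beside 20.8% and 15.6% of all genes, with a median log2 fold change of -0.31. With length offsets 11 fell and 9 rose, near the 18.6% and 20.1% of all genes, and the median was -0.07. *CHD7*, a CHD-family ATPase, had 78.1 and 54.4 CPM in PC9 and 15.8 and 16.8 CPM in PC9OR (log2 fold change -2.02, edgeR adjusted p = 0.00597). *GATAD2B* of the NuRD complex (-2.02), *BAZ2A* (-1.92) and *BPTF* (-1.48), both partners of ISWI ATPases, fell as well, and all 4 calls held with length offsets. *SRCAP* had the lowest log2 fold change of the list at -6.18 (edgeR adjusted p = 0.0306), but its PC9 replicates were at 28.1 and 2.08 CPM, against 0.187 and 0.219 CPM in PC9OR. Of the PRC2 core, *SUZ12* fell by 1.09 on the log2 scale (edgeR adjusted p = 0.00579), *EZH2* was at -0.28 (edgeR adjusted p = 0.0988) and *EED* at 0.15 (edgeR adjusted p = 0.466); these 3 were named after their values were seen.

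Among 12 genes known to respond to SMARCB1 in rhabdoid tumour cells, 11 were tested, none rose and 4 fell, beside 15.6% and 20.8% of all genes, with a median log2 fold change of -0.19. With length offsets none rose and 3 fell, beside 20.1% and 18.6%. The list mixes genes that SMARCB1 induces there with genes that it represses, so these counts do not measure a response to it. *CDKN1A*, the p21 cell cycle inhibitor that SMARCB1 induces in those cells, had 47.7 and 43.5 CPM in PC9 and 23.4 and 15.4 CPM in PC9OR (log2 fold change -1.23, edgeR adjusted p = 0.0166). *PLK1*, a mitotic kinase that SMARCB1 represses there, had 192 and 144 CPM in PC9 and 88.1 and 80.2 CPM in PC9OR (log2 fold change -0.996, edgeR adjusted p = 0.0145). *MYC* fell by 0.67 on the log2 scale and *PTCH1*, a Hedgehog receptor, by 1.05, the latter without a call under length offsets (edgeR adjusted p = 0.0837). In edgeR 0 of the list were higher at an unadjusted p under 0.05. At an adjusted p under 0.05, DESeq2 called 0 higher and the pooled-replicate model 2. *CDKN2A*, which encodes the p16 inhibitor that SMARCB1 induces in rhabdoid cells and which is named here after its values were seen, had 31.6 and 52.6 CPM in PC9 and 68.7 and 58.6 CPM in PC9OR. The lines did not overlap, PC9OR being higher, and the log2 fold change of 0.59 was not called (edgeR adjusted p = 0.130).

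The direction of the *SMARCB1* change was shared by much of its surroundings. Of the 20 nearest tested genes, 10 on each side between 22051825 and 24951903 on chromosome 22, 16 were higher in edgeR. None was lower (0 also at an unadjusted p under 0.05), and the median log2 fold change was 2.33. Of all genes tested, 15.6% were higher and 20.8% lower. The genes at the right end, *SPECC1L-ADORA2A* (1.09), *ADORA2A* (-1.92) and *GUCD1* (0.05), were not called. *MIF*, a secreted cytokine at 24236570-24237414, had 79.3 and 155 CPM in PC9 and 1697 and 1403 CPM in PC9OR. *DDT*, its paralog at 24312731-24322716, had 15.3 and 27.4 CPM in PC9 and 448 and 380 CPM in PC9OR. Also among the 5 nearest on either side, and higher in PC9OR in both libraries, were *BCR* (log2 fold change 2.16), *ZNF70* (2.03), *SLC2A11* (2.69) and *CABIN1* (2.34).

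*MMP11* (3.16), *CHCHD10* and *DRICH1*, the remaining left neighbours, were low in PC9, the last at 0 in both PC9 libraries and at 0.780 and 0.594 CPM in PC9OR. *MIF-AS1*, which overlaps *MIF* on the other strand, was at or below 0.810 CPM in all libraries and at a log2 fold change of -0.19. The strand setting of the counting is not given in the sources used here, so its reads and those of *MIF* may not be separable. DNA copy number was not measured here.

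Around the partners the medians were nearer to 0. The median log2 fold change of up to 20 nearest tested genes lay between -0.67 (*SMARCE1*) and 0.44 (*SMARCA4*), on the other side of 0 from the member itself in both. *SMARCA2*, with 4 tested genes on the left and 10 on the right, had 7 of them lower and 1 higher at a median of -0.39, beside 20.8% and 15.6% of all genes and in the direction of *SMARCA2* itself. *ARID1A*, the partner with the lowest value, had neighbours at a median of -0.27, with 1 higher and 4 lower.

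**Figure D4:**
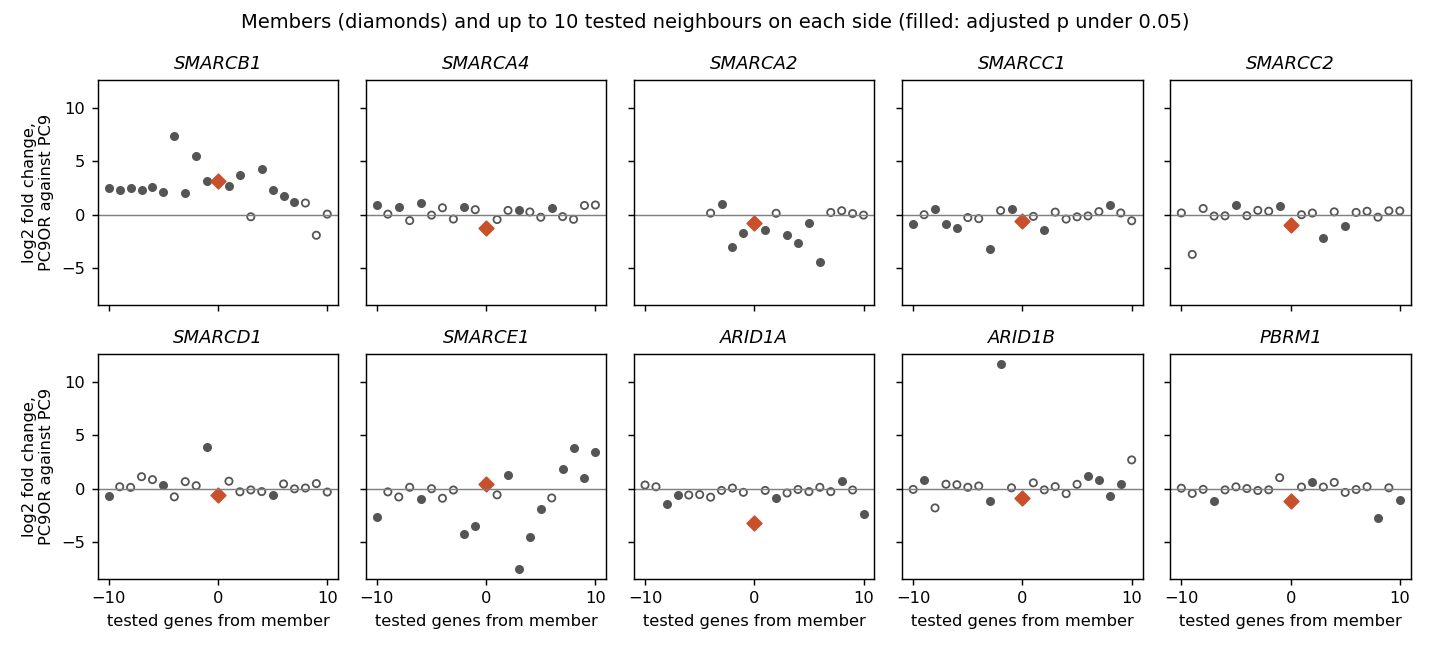
Log2 fold change (PC9OR against PC9) of up to 10 tested genes on each side of every member, by number of tested genes from the member along the chromosome. The genes around *SMARCB1* have a median of 2.33, and the medians around the partners lie between -0.67 and 0.44; a fold of a gene at 0 in both libraries of a line depends on the prior count.

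The genes whose profile over the 4 libraries was nearest to *SMARCB1*, by Euclidean distance of centred log2 CPM among 9138 genes with a mean of at least 10 CPM over the libraries, were *THAP7* (distance 0.163), *UBE2L3* (0.334), *TSPYL5* (0.341), *S100A4* (0.434) and *MAGED1* (0.465). *THAP7* and *UBE2L3* lie on chromosome 22 at 21353393-21356485 and 21903736-21978323, to the left of the *SMARCB1* neighbours given above. The other 3 lie on chromosomes 8, 1 and X. Those 3, *TSPYL5*, *S100A4* and *MAGED1*, were under 10 CPM in both PC9 libraries and reached the mean through PC9OR. *THAP7* had 10.02 and 10.99 CPM in PC9 and 106 and 98.1 CPM in PC9OR, and *S100A4*, a calcium-binding protein linked to cell motility, 5.72 and 7.56 CPM in PC9 and 67.8 and 81.2 CPM in PC9OR.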

How the data were processed

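RNA of 2 PC9 and 2 PC9OR replicates had been made into TruSeq Stranded libraries by the authors, aligned to GRCh37 transcripts with Bowtie2 2.2.5 and quantified with RSEM 1.2.12, per the submitters' notes. The deposited tables hold, per Entrez gene, an expected count, a length-scaled FPKM and the transcript length used for it. The listed expected counts are 69.1 to 71.0% of the library totals that the deposited FPKM imply, and between 44.5 and 46.5% of genes have a count that is not whole. Groups came from the labels. Whether biological replicates were separate cultures is not stated, so p-values measure the spread between these samples. A floor of 3 counts equals 0.0936 to 0.128 CPM and covers counting error only.

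Expected counts were rounded, filtered with filterByExpr (13148 genes), TMM-normalised and tested with edgeR 4.0.16 (R 4.3.3) by the quasi-likelihood test with Benjamini-Hochberg adjustment over all genes and a threshold of 0.05. The scripts were tested on simulated data. Length offsets came from mgcv 1.9.3. Alternatives used DESeq2 1.42.0, limma 3.58.1, an MA-plot-based model on pooled replicates like the study's, other filters and scalings, a replicate block, and each library left out. Positions are from GENCODE lifted to GRCh37, and promoters from RefSeq on GRCh38.p14. The members and lists were chosen with earlier results of these data known. The CGCNTGCGC motif was shortened by 1 letter after a first search of the promoters. Named were all members, called genes of the other SWI/SNF list with those at 0, up to 5 called genes of each further list by size of change, the 5 tested genes on either side of *SMARCB1*, and the 5 profiles nearest to it.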

Additional observations from a re-analysis of the deposited data

How the results depend on the processing

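Over all alternatives the 9 partners gave 134 log2 fold changes, of which 109 kept direction and side of the threshold, 18 lost the call, 7 gained it and none reversed. Counts moved more. When replicates were pooled in an MA-plot-based model, 5764 genes were higher and 5705 lower (2056 and 2734 in edgeR), as were 7 other SWI/SNF subunits higher, 13 remodellers higher and 29 lower, and 2 SMARCB1-responsive genes higher. At more than 2-fold with an adjusted p under 0.001, the count was 0 in every list and direction in edgeR, while 967 genes were higher and 1718 lower at more than 2-fold and an unadjusted p under 0.05. Remodellers higher numbered 6 with DESeq2, beside 2435 of all genes. Length offsets gave 9 remodellers higher and 11 lower, beside 2641 and 2441 of all genes. Without a filter on low counts, 0 partners were higher, beside 1839 of all genes.

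The replicate numbers do not pair the samples by the labels, and the deviations of same-numbered libraries correlated at 0.0637. With the replicate block 4 remodellers and 1 responsive gene were higher, beside 2593 of all genes. With the block and length offsets together 3368 genes and 11 remodellers were higher, and the *SMARCB1* log2 fold change was 2.99. The block gained the calls of *ARID1B* (edgeR adjusted p = 0.0370) and, in the responsive list, *CDKN2A* (edgeR adjusted p = 0.0422). *PBRM1* was at -2.64 with the block (edgeR adjusted p = 0.0994) and, with length offsets added, at -2.06 (edgeR adjusted p = 0.0129). *SMARCB1* was at 2.99 with length offsets alone, 3.08 by limma on log2(FPKM + 1) and 3.14 on log2(FPKM + 0.1), against 3.17 in the edgeR fit.

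Leaving out each library in turn gave 525 to 3932 genes higher and 1177 to 3929 lower, 0 to 1 partners higher and 2 to 7 lower, 1 to 5 other SWI/SNF subunits higher and 2 to 8 lower, 0 to 10 remodellers higher and 8 to 24 lower, 0 to 1 responsive genes higher and 1 to 6 lower, and a *SMARCB1* log2 fold change of 3.12 to 3.19. The lone library of a line was then assumed to vary like the other line. The lowest counts came without a PC9OR library, which leaves the more variable PC9 pair to set the spread. With 2 libraries a line, smaller differences were not detectable, and the cause of the shifts was not tested.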
